A study of Mus musculus with 24 samples.

Results

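ID8 P53 KO cells kept in the vehicle DMSO differed between replicates, and the comparison here is of the DMSO libraries of replicates 1, 2 and 3 with those of replicates 4, 5 and 6. These are 6 of the 24 libraries of the series, 3 on each side. The sides were defined from the expression values of these same libraries, in which genes of low oxygen, nutrient stress and the cell cycle had been seen to differ, so the differences between them are described without a test. Tests were run only in the other 18 libraries, which were treated with drugs, carry the same replicate numbers and did not enter the rule. The replicate numbers had been noticed in earlier results from all 24 libraries, so these tests are not independent support for the division.

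ID8 is a mouse line derived from ovarian surface epithelium and used as a model of ovarian cancer, and in all 24 libraries the cells carried the P53 KO genotype. They were grown in DMEM rich in glucose and pyruvate, with fetal bovine serum, insulin-transferrin-selenium and antibiotics, and were treated for 6 days. The 4 groups of 6 replicates received DMSO, 2.5 uM AU15330 (a PROTAC, a compound that directs the chromatin remodeler SMARCA4 to degradation), 750 nM Cisplatin (a drug that crosslinks DNA), or Cisplatin and AU15330 together. All groups share this 1 knockout line. The labels do not say whether replicates were separate cultures, were grown at one time or were plated at one density, so p-values measure only the spread between these samples, which may be technical. The Trp53 transcript was read at 20.4 to 30.1 CPM in the DMSO libraries, and with no wild-type library this does not check the genotype. CPM are counts per 1000000 counts on the genes kept, scaled by the TMM method.

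Some markers of the ovarian surface were well read in every DMSO library and others were low. Krt8, Krt18 and Krt19, keratins of simple epithelia, stood at 272 to 426 CPM, 509 to 762 CPM and 1316 to 2350.2 CPM. Wt1 and Msln, which mark the mesothelium and the ovarian surface, stood at 749.7 to 865 CPM and 394 to 553 CPM. Lrrn4, another mesothelial marker (1.73 to 4.78 CPM), Krt7 (0.410 to 2.29 CPM) and Cdh1 (0.296 to 1.09 CPM) were low, and Epcam had at most 2 counts in a library. Of 16 markers of other cell types, 13 had at most 5 counts in any DMSO library and 6 were at 0 in all of them, namely Adgre1 of macrophages, Tyrobp and Nkg7 of leukocytes, the globins Hba-a1 and Hbb-bs, and Krt5 of basal epithelia. The summed level of the 16 ran from 9.25 to 12.8 CPM in replicates 1, 2 and 3 and from 8.83 to 10.1 CPM in replicates 4, 5 and 6.

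In low oxygen the HIF transcription factors escape hydroxylation by the EGLN enzymes, persist, and raise genes of glucose uptake, glycolysis, collagen modification and vessel growth. ATF4 is the transcription factor of the integrated stress response, made when amino acids are short or proteins misfold, and its targets import and synthesize amino acids and charge tRNAs. Misfolded protein in the endoplasmic reticulum also raises chaperones such as Hspa5 through the unfolded protein response. Mitotic genes are transcribed late in the cell cycle, so their level in a culture follows the share of cycling cells, and SREBP2 raises the sterol genes when cell cholesterol is low. In bulk RNA, fewer cells with a transcript and less of it per cell cannot be told apart.

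The promoters printed here are those of the low oxygen and ATF4 genes with the largest DMSO differences that had a usable entry, shown because they hold, or lack, the short elements through which HIF and ATF4 are known to bind. Each is the 250 bases before the transcript start, 5′ to 3′ (RefSeq, GRCm38.p6), with motif matches in capitals. Gpi1 and Gapdh are glycolytic enzymes, Nupr1 is a stress-induced chromatin protein and Slc7a11 is the cystine importer. All 4 genes are on the minus strand, and the stretches are chr7:34230337-34230586, chr6:125165774-125166023, chr7:126625471-126625720 and chr3:50443614-50443863.
Gpi1: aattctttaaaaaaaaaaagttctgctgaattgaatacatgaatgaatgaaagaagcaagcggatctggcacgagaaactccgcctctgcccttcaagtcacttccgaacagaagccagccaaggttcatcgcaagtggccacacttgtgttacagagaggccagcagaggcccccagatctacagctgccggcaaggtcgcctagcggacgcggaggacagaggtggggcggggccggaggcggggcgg
Gapdh: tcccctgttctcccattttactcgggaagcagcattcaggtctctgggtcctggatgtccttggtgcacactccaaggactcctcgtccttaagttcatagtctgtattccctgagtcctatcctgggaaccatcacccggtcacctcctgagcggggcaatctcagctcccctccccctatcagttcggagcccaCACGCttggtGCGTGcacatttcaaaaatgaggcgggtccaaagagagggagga
Nupr1: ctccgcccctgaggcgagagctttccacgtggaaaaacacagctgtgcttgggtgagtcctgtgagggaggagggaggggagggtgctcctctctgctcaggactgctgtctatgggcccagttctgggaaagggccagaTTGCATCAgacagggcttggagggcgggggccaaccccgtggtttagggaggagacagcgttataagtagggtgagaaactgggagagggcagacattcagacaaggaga
Slc7a11: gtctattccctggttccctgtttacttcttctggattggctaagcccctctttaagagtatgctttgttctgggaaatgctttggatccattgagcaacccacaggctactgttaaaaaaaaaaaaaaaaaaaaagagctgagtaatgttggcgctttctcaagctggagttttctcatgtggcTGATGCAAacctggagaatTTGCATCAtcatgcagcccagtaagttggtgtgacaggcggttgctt

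Gpi1 and Gapdh were searched on both strands for the core of the hypoxia response element, ACGTG or GCGTG, and Nupr1 and Slc7a11 for the ATF4 element TGATGNAA. Gapdh held 2 matches and Gpi1 held 0, while Nupr1 held 1 and Slc7a11 held 2. The hypoxia core was in 38.6% of 27025 promoters of this length, in 57.8% of the 9634 matched to genes kept in the DMSO libraries, and in 71.4% of the 42 matched promoters of the low oxygen list. The ATF4 element was in 3.53% of all promoters, in 1.93% of those of kept genes and in 22.5% of the 40 of the ATF4 list. The CHR element TTTGAA, known from mitotic genes, was in 16.3% of all promoters, 10.2% of those of kept genes and 31.3% of the 32 of the G2/M list. A match describes the letters and is not a bound site.

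The DMSO libraries held 17592588 to 23096222 counts, with overlap between the sides (18725778 to 25260009 in the drug-treated libraries), and the first principal component of their log2 CPM, with 42.8% of the variance, separated replicates 1, 2 and 3 from the others. The second, with 34.5%, set replicate 1 apart. Replicate 1 had 934 genes at least 2-fold from replicate 2 but 516 from replicate 5, whereas replicates 2 and 3 differed at 204 genes and replicates 4 and 6 at 105. The sides also differed without overlap in the share of counts in the 50 highest genes (10.9% to 12.8% against 9.22% to 10.4%), in the TMM factor (0.963 to 0.987 against 1.01 to 1.03), in the nuclear RNA Neat1 (0.0721% to 0.0825% against 0.142% to 0.212% of counts) and in histone genes (0.215% to 0.275% against 0.201% to 0.203%). The part of these measures in the differences between the sides was not tested. A count of 3, the floor used for counting error alone, came to 0.13 to 0.171 CPM.

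**Figure D1:**
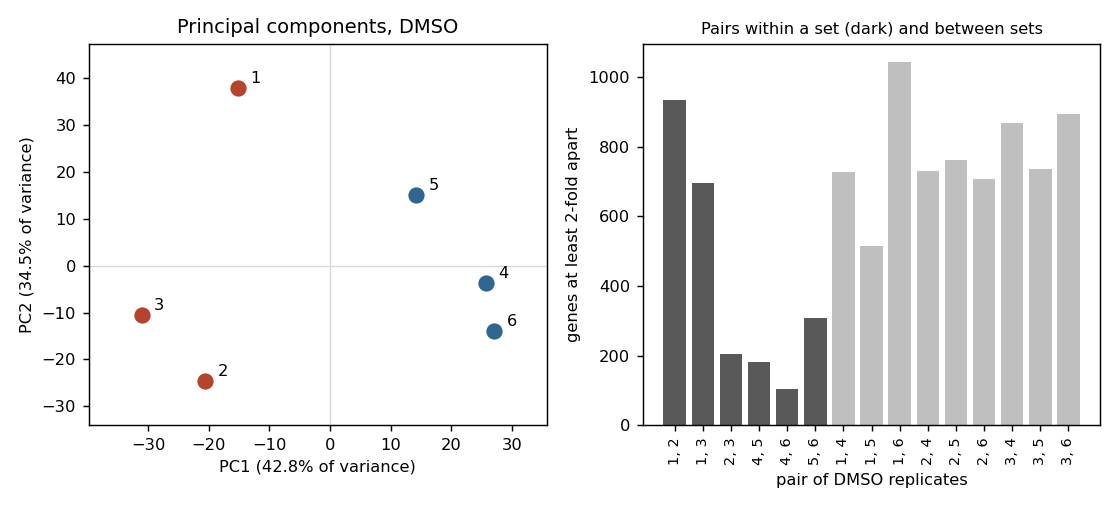
Left, the first 2 principal components of log2 CPM in the 6 DMSO libraries (red, replicates 1 to 3; blue, replicates 4 to 6). Right, for each pair of DMSO replicates, the number of genes at least 2-fold apart; replicate 1 lies apart along the second component and differs from replicates 2 and 3 at 934 and 695 genes.

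Of 12067 genes kept by the filter on low counts, 1412 were higher in every library of replicates 1, 2 and 3 than in any of replicates 4, 5 and 6 (11.7%), and 1310 were lower (10.9%). With a log2 difference of at least 1 as well, 176 were higher (1.46%) and 180 were lower (1.49%). Just inside this limit were Rab3b at 1.01 and Plxna4 at -1.0, and just outside were the pyruvate kinase gene Pkm at 0.98 and Ppp1r15a, a phosphatase subunit of the stress response, at -0.99. The median log2 difference over all kept genes was -0.01. These are the values that chose the sides, and nothing is read from their number. Without replicate 1, when only 5 libraries have to be in order, 20.6% and 22.1% of genes had no overlap.

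Low oxygen, G2/M and sterol genes were higher in replicates 1, 2 and 3, and ATF4 and endoplasmic reticulum stress genes were lower. The median log2 difference was 0.70 over the 52 kept genes of low oxygen and glycolysis, 0.87 over 40 G2/M genes and 0.62 over 32 genes of sterol and fatty acid synthesis. It was -0.52 over 48 ATF4 genes and -0.42 over 23 endoplasmic reticulum stress genes, and without replicate 1 these were -0.17 and -0.12. The first 3 medians were larger without replicate 1, at 0.84, 1.04 and 0.78. The lists were assembled with earlier results of these data in view.

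**Figure D2:**
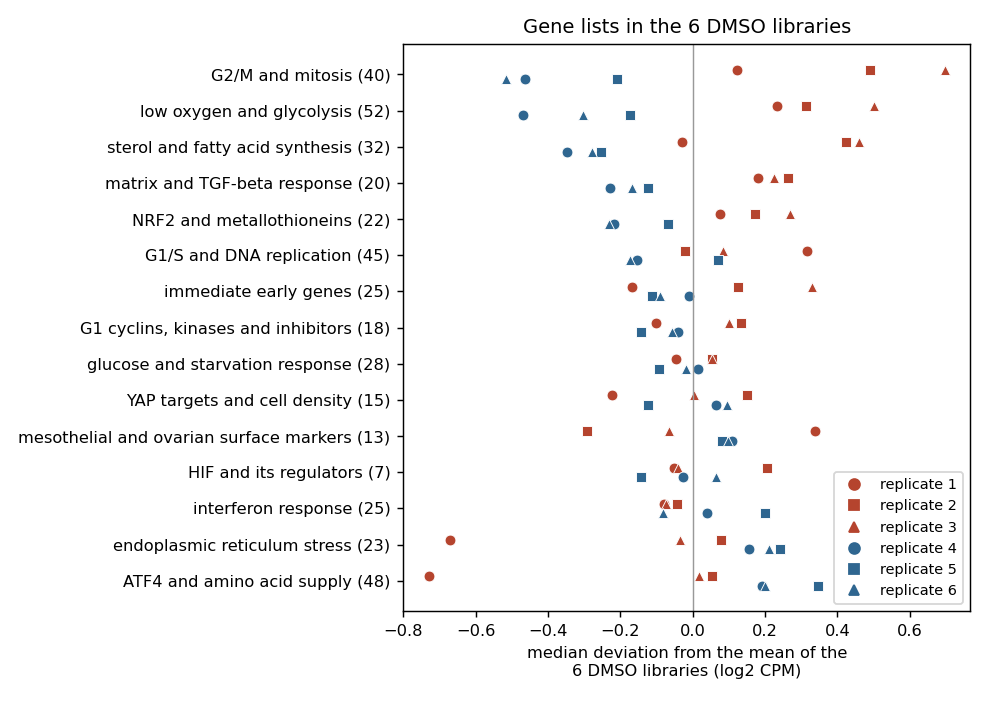
Each point is 1 DMSO library, placed at the median over a list of the deviation of log2 CPM from the mean of the 6 libraries (red, replicates 1 to 3; blue, replicates 4 to 6). Replicate 1 lies far from the rest for ATF4 (-0.73) and endoplasmic reticulum stress genes (-0.67), while for low oxygen genes the red points (0.23 to 0.50) are all above the blue ones (-0.47 to -0.17).

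Most steps of glycolysis were read at higher levels in replicates 1, 2 and 3. Of the 52 kept genes of the low oxygen list, 34 were higher and 3 lower without overlap, against 11.7% and 10.9% of all genes, and 14 of the 34 passed the 2-fold limit. The remaining pair of the list, Tmem45a and Stc1, had at most 1 count in a library. Gpi1, which turns glucose 6-phosphate into fructose 6-phosphate, had 2187, 3111 and 3872 CPM in replicates 1, 2 and 3 and 821, 948 and 865 CPM in replicates 4, 5 and 6. Every library of the first side was at more than 2 times the level of any library of the other, and the log2 difference was 1.76 (SD within sides 0.30). Gapdh, which oxidizes glyceraldehyde 3-phosphate, had 2722, 3188 and 4409 CPM against 1016, 1148 and 1027 CPM, with no overlap and a difference of 1.67. The aldolase genes Aldoc and Aldoa had 195, 215 and 243 CPM against 65.7, 79.1 and 73.7 CPM (1.58) and 3237, 3783 and 4524 CPM against 1637, 2196 and 1614 CPM (1.09). Both were higher in each library of the first side, Aldoc by the larger factor.

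Later steps were also higher. Pgk1, the phosphoglycerate kinase, had 652, 787 and 1021 CPM against 259, 342 and 292 CPM (1.45). Ldha, which makes lactate from pyruvate, had 1554, 1336 and 1614 CPM against 680.2, 860.2 and 689.8 CPM (1.02). In both genes replicate 5 was the highest of its side. Phosphofructokinase Pfkl, triosephosphate isomerase Tpi1, the mutases Pgam1 and Pgm1 and the enolase Eno1 had log2 differences of 0.62, 0.85, 1.07, 0.88 and 0.89, each without overlap. Eno2, the second enolase, went the other way with overlap (-0.38). Gapdh, Pgk1, Ldha, Pkm and other glycolytic genes have near-identical pseudogene copies in the mouse genome, so their counts are uncertain where the counting could split or drop shared reads.

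Entry of glucose did not follow the later steps. Slc2a1, the main glucose transporter, had 243, 189 and 209 CPM against 143, 202 and 156 CPM, and replicate 2 was below replicate 5. Hk1 was slightly higher without overlap (0.14). Hk2, the hexokinase best known as a HIF target, was lower without overlap at 203, 197 and 186 CPM against 243, 276 and 264 CPM (-0.42). Pdk1, the kinase that keeps pyruvate out of the mitochondria, had 442, 471 and 507 CPM against 196, 244 and 223 CPM (1.10), and Gbe1, which branches glycogen, had 112, 168 and 185 CPM against 47.4, 61 and 54.7 CPM (1.48). Pdk1 and Gbe1 were thus at more than 2-fold higher mean levels in replicates 1, 2 and 3. Bsg, the surface partner of the lactate transporters and no member of the list, had the largest positive difference among genes without overlap and with a mean of at least 20 CPM. It had 5058, 5653 and 7667 CPM in replicates 1, 2 and 3 and 1272, 1910.3 and 1261 CPM in replicates 4, 5 and 6, or 6126 ± 1367 CPM against 1481 ± 372 CPM (mean ± SD, n = 3 on each side), 4.15-fold from the difference on the log2 scale. The lactate exporter Slc16a3 was read at only 2.48 to 3.58 CPM against 1.10 to 1.83 CPM.

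HIF targets outside glycolysis were mixed. Lox, the enzyme that crosslinks collagen and elastin, had 104, 172 and 146 CPM against 41.7, 41.4 and 51 CPM (1.63). P4ha2, a collagen prolyl hydroxylase, had 74.7, 121 and 161 CPM against 40.3, 67 and 49.1 CPM (1.15), and Fam162a, a mitochondrial HIF target, had 233, 189 and 242 CPM against 74.2, 129.5 and 71 CPM (1.32). These 3 were higher in each library of the first side. Egln3 and Egln1, the hydroxylases that HIF itself raises, were at 0.58 and 0.64 without overlap. Car9, a carbonic anhydrase much used as a hypoxia marker, was low in all libraries, at 1.91 to 3.87 CPM against 1.06 to 1.73 CPM (0.95). Vegfa, the vessel growth factor, had 873, 1336 and 1364 CPM against 895, 1035 and 983 CPM, and replicate 1 was below every other library. Ero1l, an oxidase of protein folding, also split the first side, with 446 CPM in replicate 1 and 1614 and 1530.0 CPM in replicates 2 and 3, against 420.1, 513 and 547 CPM on the other side. Narf and Angptl4 were lower without overlap (-0.33 and -0.26), and the demethylase gene Kdm3a and the growth brake Ddit4 stood at -0.12 and -0.07.

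The mRNAs of HIF and its regulators had no common difference, with a median of -0.06. Hif1a, whose protein is controlled by degradation, had 362, 551 and 406 CPM against 503, 400.4 and 543 CPM (-0.14) and overlapped. Epas1, which encodes HIF2A, and Vhl, which targets HIF for degradation, overlapped at 0.28 and -0.06. Hif1an, the asparaginyl hydroxylase that restrains HIF, was lower without overlap (-0.23). Cited2, a HIF target that competes for its coactivator, was the 1 gene higher without overlap of 7 kept, where 11.7% of all genes were, at 301, 447 and 451 CPM against 248, 209.6 and 265 CPM (0.71).

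**Figure D3:**
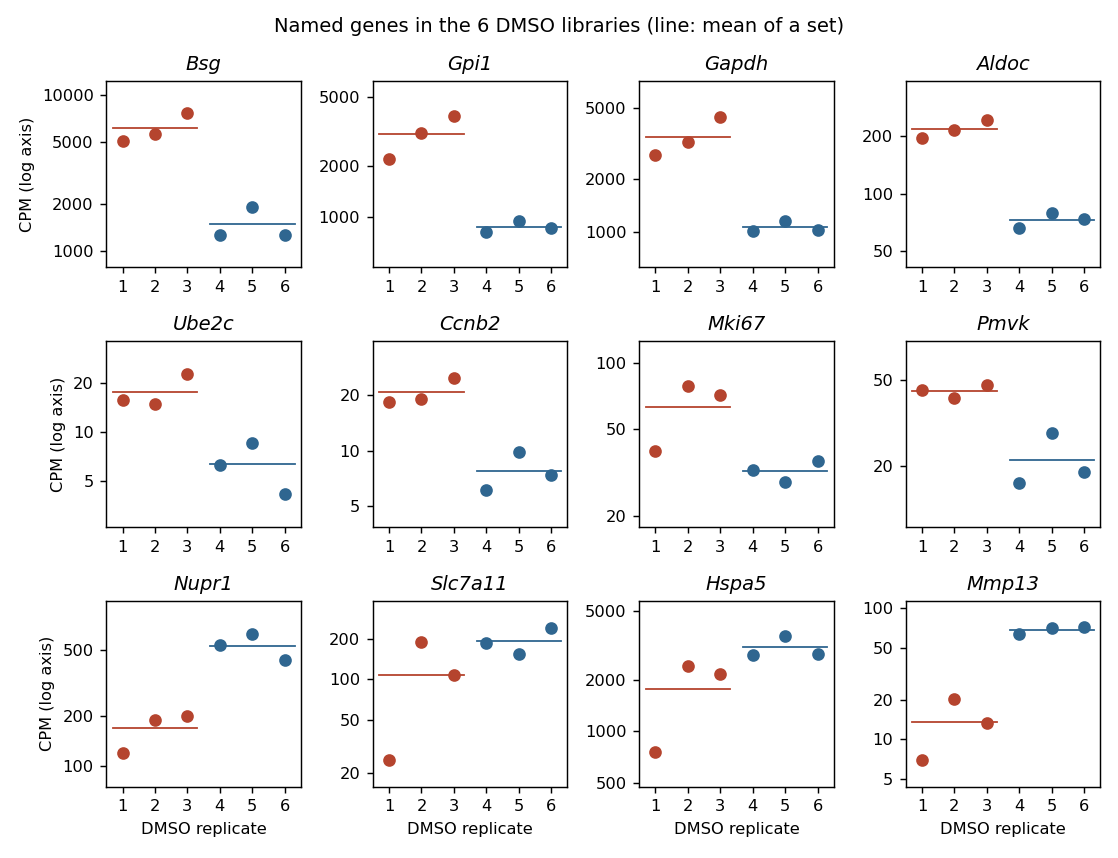
CPM of 12 genes (log axes) in the 6 DMSO libraries (red, replicates 1 to 3; blue, replicates 4 to 6), with a line at the mean of each side. Bsg, Gpi1, Gapdh and Aldoc are higher in all red libraries, Nupr1 and Mmp13 are lower, and replicate 1 is far below the others for Slc7a11 and Hspa5.

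Genes that respond to glucose and starvation were split, with 9 higher and 4 lower without overlap of 28 kept, against 11.7% and 10.9% of all genes, and a median of 0.06. Without replicate 1 there were 7 lower, where 22.1% of all genes were, and without replicate 2 there were 9, where 16.2% were. Txnip, which rises with glucose and restrains its uptake, had 2520.0, 3068 and 3615 CPM in replicates 1, 2 and 3 and 1254, 1609 and 1616 CPM in replicates 4, 5 and 6. Each library of the first side was above all of the other (1.03). Its relative Arrdc4 had 38.7, 48.3 and 61.7 CPM against 22.4, 30.8 and 25 CPM (0.91), and Pdk4, the pyruvate dehydrogenase kinase of fasting, had 56.8, 103 and 114 CPM against 43.5, 44.3 and 47.2 CPM (0.96). Castor1, an arginine sensor upstream of mTORC1, was at 1.10, the second gene of the list past the 2-fold limit. Sqstm1, the autophagy receptor p62, was lower, with 861, 1329 and 1275 CPM against 1941, 2711 and 1880.2 CPM (-0.92). The autophagy kinase gene Ulk1 and Flcn, of lysosomal nutrient signaling, were lower without overlap at -0.40 and -0.35.

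Genes of the ATF4 program were lower in replicates 1, 2 and 3 and lowest in replicate 1. Of 48 genes, 4 had a positive difference, 21 were lower and 0 higher without overlap, and 9 of the 21 passed the 2-fold limit, where 10.9% of all genes were lower, 11.7% higher and 1.49% lower past that limit. Without replicate 1, 22 were lower and 6 were higher, where 22.1% and 20.6% of all genes were. Nupr1 had 119.6, 190.2 and 201 CPM in replicates 1, 2 and 3 and 537, 624 and 438 CPM in replicates 4, 5 and 6. The highest library of the first side was below the lowest of the other, with a difference of -1.67. Slc7a11, the cystine importer, had 25.1, 191 and 108 CPM against 187, 154 and 244 CPM (-1.25). Here replicate 1 was far below all others, and replicate 2 was above replicates 4 and 5, so that the sides overlapped. Aldh1l2, a mitochondrial folate enzyme, had the same form, with 31.3 CPM in replicate 1 and 111 to 175 CPM in the other libraries. Atf4 itself overlapped at 356, 532 and 556 CPM against 581, 770.4 and 534 CPM (-0.39).

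Stress effectors and enzymes of amino acid supply were both among the lower genes. Atf5 had 34, 68.7 and 64 CPM against 125, 143 and 109 CPM (-1.23), and Ddit3, the death-associated factor CHOP, had 35.5, 87.8 and 80.1 CPM against 124, 157 and 125 CPM (-1.09). Chac1, which degrades glutathione, had 15.8, 33.7 and 30.03 CPM against 56.5, 59.98 and 53 CPM (-1.16), and Sesn2, a leucine sensor, had 25.6, 32.1 and 31.4 CPM against 60.9, 60.9 and 60.2 CPM (-1.04). In Sesn2 and Chac1 replicates 2 and 3 were also well below the other side. Trib3, a pseudokinase that restrains ATF4, and the secreted factor Gdf15 were at -1.04 and -1.18. Of the serine and glycine genes, Psph, Shmt2, Mthfd2 and Phgdh were lower without overlap at -0.71, -0.70, -0.63 and -0.58, while Psat1 stood at 0.23 with overlap. Asns, asparagine synthetase, had 65.5, 159 and 149 CPM against 181, 244 and 173 CPM (-0.77). Of the 10 tRNA synthetase genes only Wars was lower without overlap (-0.75), and the others ran from -0.35 (Eprs) to -0.10 (Mars1). Slc7a3 and Cth, the largest differences of the list, were read at only 0.0910 to 1.58 CPM and 0.924 to 8.04 CPM.

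Chaperones of the endoplasmic reticulum were lower in the first side, most of all in replicate 1. Of 23 genes, 9 were lower and 0 higher without overlap, with 2 past the 2-fold limit, against 10.9%, 11.7% and 1.49% of all genes. Without replicate 1 there were 10 lower and 2 higher, against 22.1% and 20.6%. Hspa5, the chaperone BiP, had 760.0, 2412 and 2141 CPM in replicates 1, 2 and 3 and 2784, 3604 and 2836 CPM in replicates 4, 5 and 6. Replicate 1 was far below every other library, and replicates 2 and 3 were also below replicates 4, 5 and 6 (-0.95). Herpud1, of the degradation of misfolded proteins, had 82.3, 186 and 168 CPM against 272, 307 and 269 CPM (-1.04), and Sdf2l1, a cofactor of BiP, had 17.3, 30.1 and 28 CPM against 50.5, 65.9 and 45.2 CPM (-1.12). Xbp1, the transcription factor activated by splicing, overlapped at 0.06.

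Mitotic genes were higher in replicates 1, 2 and 3 together. Each of the 40 G2/M genes had a positive difference, 31 were higher and 0 lower without overlap, and 11 passed the 2-fold limit, against 11.7%, 10.9% and 1.46% of all genes. Ube2c, which marks mitotic cyclins for destruction, had 15.6, 14.7 and 22.5 CPM in replicates 1, 2 and 3 and 6.26, 8.46 and 4.16 CPM in replicates 4, 5 and 6. The lowest library of the first side was above the highest of the other (1.5), at levels that are low in all libraries. Ccnb2, a mitotic cyclin, had 18.5, 19.1 and 24.8 CPM against 6.13, 9.83 and 7.40 CPM (1.42), and Ccna2, cyclin A, had 17.5, 22.1 and 27.3 CPM against 8.84, 10.7 and 8.49 CPM (1.23). Mki67, the proliferation antigen, had 39.4, 78.5 and 71 CPM against 32.4, 28.6 and 35.6 CPM (0.91), with replicate 1 near the other side. The mitotic kinases Plk1, Aurka and Aurkb were at 1.09, 1.14 and 1.09, and the activator Foxm1 at 0.49. Mybl2, Cdc25b and Incenp were the smallest, at 0.04, 0.06 and 0.09, all with overlap.

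The genes of DNA replication had smaller differences. Of 45 G1/S genes, 11 were higher and 1 lower without overlap, shares to be read against 11.7% and 10.9% of all genes, with a median of 0.24, which was 0.11 without replicate 1. Without replicate 5 there were 23 higher, where 2440 of 12207 genes were. Rrm2, a ribonucleotide reductase subunit, had 26, 25.8 and 32.3 CPM against 13.2, 17.6 and 13.9 CPM (0.91), and DNA ligase Lig1 and the checkpoint adaptor Clspn were at 0.61 and 0.68. Mcm2, of the replicative helicase, was lower without overlap (-0.38), whereas Mcm4 of the same helicase was higher (0.42). Among 18 genes of G1 control, 3 were higher and 1 lower, to be read against the same shares, with 7 higher without replicate 1 and 6 without replicate 5, where 20.6% and 2440 of 12207 genes were. Cdkn1a, the p21 inhibitor and a p53 target, overlapped at 47.5, 66.7 and 79.2 CPM against 36.2, 56.1 and 39.2 CPM (0.55), the inhibitor Cdkn2d was higher (0.70) and the growth arrest gene Gas1 was lower at 135, 73.2 and 72 CPM against 165, 152 and 161 CPM (-0.83). Ccnd1 and Myc overlapped at -0.01 and -0.12.

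Sterol synthesis genes were higher in replicates 1, 2 and 3 along most of the pathway. Of 32 genes, 20 were higher and 0 lower without overlap, and 3 passed the 2-fold limit, against 11.7%, 10.9% and 1.46% of all genes. Pmvk, phosphomevalonate kinase, had 45.1, 41.1 and 47.4 CPM against 16.7, 28.5 and 18.8 CPM (1.09), and Mvd, the next enzyme of the mevalonate pathway, had 37.3, 46.6 and 58.1 CPM against 22, 24.9 and 19.7 CPM (1.07). Acat2 (1.05), Fdps (0.87), Lss (0.95), Nsdhl (0.90) and the SREBP retention factor Insig1 (0.79) were higher without overlap too. The fatty acid enzymes Fasn and Acaca overlapped at -0.02 and -0.22.

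Oxidative stress and matrix genes were higher to a lesser degree. Of 22 NRF2 and metallothionein genes, 9 were higher and 0 lower without overlap, against 11.7% and 10.9% of all genes, and 14 were higher without replicate 1 or without replicate 5, where 20.6% and 2440 of 12207 genes were. Nqo1, a quinone reductase, had 52.1, 89.8 and 89.2 CPM against 33.8, 39 and 38 CPM (1.02). Mt1, a metallothionein, had 96.4, 68.2 and 92.6 CPM against 45.9, 46.8 and 37.2 CPM (0.98), and Mt2 was at 1.13 from levels of about 1 CPM or less. The metallothioneins are near-identical genes and their counts are uncertain. Of 20 matrix genes, 8 were higher and 0 lower, to be read against the same shares, led by Col1a1, a collagen chain, with 396, 459.9 and 587 CPM against 175, 277 and 184 CPM (1.19) and Loxl2, a relative of Lox, with 316, 464 and 458 CPM against 199, 175 and 211 CPM (1.07). Vim, the intermediate filament of mesenchymal cells, had 2909, 3017 and 3809 CPM against 1588, 2042 and 1524 CPM (0.92).

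Other lists had no common direction, and their counts are to be read against the 11.7% of all genes higher and 10.9% lower without overlap. Of 15 YAP targets, 3 were higher and 2 lower, with Ccn2, a secreted matrix protein, at 0.77 and Amotl1, a junctional YAP inhibitor, at -0.85. The YAP counts were 6 and 2 without replicate 1, 2 and 5 without replicate 2, and 3 and 7 without replicate 5, where all genes gave 20.6% and 22.1%, 16.8% and 16.2%, and 2440 and 2476 of 12207 genes. Of 25 immediate early genes, 3 were higher and 3 lower, and the stress factor Atf3 was lower at 37.6, 74.1 and 110.3 CPM against 113, 147 and 135 CPM (-0.95). Without replicate 1, 10 immediate early genes were higher and 4 lower, where 20.6% and 22.1% of all genes were. Of 25 interferon genes, 3 were higher and 6 lower, and the 3 past the 2-fold limit (Rsad2, Cxcl10 and Ifit1) were below 2.5 CPM in every DMSO library. The interferon counts were 5 and 9 without replicate 1, 6 and 6 without replicate 5 and 3 and 9 without replicate 6, where all genes gave 20.6% and 22.1%, 2440 and 2476 of 12207 genes, and 13.8% and 13.3%. Upk3b, a uroplakin of the mesothelium, had 59.3, 14.3 and 13.2 CPM against 59.6, 53.5 and 56.1 CPM. It was low in replicates 2 and 3 and at the level of the other side in replicate 1.

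Outside the lists, the largest differences were in genes of several kinds. Id2, an inhibitor of helix-loop-helix factors, had 94.1, 139.7 and 163 CPM against 34.7, 35.6 and 36.2 CPM (1.86). The muscle gene Tnnt2 and the neuronal surface gene Nrn1 were at 1.5 and 1.44. In the other direction, Mmp13, a collagenase, had 6.99, 20.3 and 13.4 CPM in replicates 1, 2 and 3 and 63.2, 70.7 and 71.3 CPM in replicates 4, 5 and 6. Each library of the first side was more than 2-fold below any library of the other, and the difference was -2.45, the largest among lower genes of at least 20 CPM. Fgf21, a secreted metabolic hormone and a known ATF4 target, had 7.33, 70.6 and 50.6 CPM against 91.3, 116 and 94.1 CPM (-1.74), with replicate 1 again far below replicates 2 and 3. The actin-binding gene Avil had 4.97, 13.6 and 9.74 CPM against 30.7, 36.6 and 31.6 CPM (-1.90), and Cgn, cingulin of tight junctions, had 95, 72.9 and 53.6 CPM against 199, 155 and 202 CPM (-1.35). Reep6 (-1.71), Lhfpl2 (-1.46), Car6 (-1.38), Slc16a10 (-1.33) and Cdsn (-1.33), with Nupr1, complete the 10 lower genes named by size.

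In the 18 drug-treated libraries, genes also differed between replicates 1, 2 and 3 and replicates 4, 5 and 6, with counts that varied with the treatment. With edgeR's quasi-likelihood test and Benjamini-Hochberg adjustment over 13238 genes, 1604 were higher (12.1%) and 1272 lower (9.61%) in the mean of the 3 treatments. On their own, AU15330 gave 506 higher (3.82%) and 381 lower (2.88%), Cisplatin 1065 (8.05%) and 950 (7.18%), and the combination 23 (0.174%) and 30 (0.227%). Under the combination 1529 genes had an unadjusted p under 0.05, and DESeq2 called 233 in both directions together. These counts depended on single replicate numbers. Without replicate 6 the Cisplatin counts were 78 and 100 and without replicate 3 they were 1975 and 1857, and for AU15330 they were 138 and 139 without replicate 4 and 743 and 670 without replicate 1. Each replicate left out moved at least 1 of these counts by more than 1.5 times. With the replicate number as a random block in limma, 643 were higher and 651 lower in place of the 1604 and 1272. With the drug-treated libraries of a replicate number summed, 136 were higher and 284 lower.

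Of the 176 genes higher past the 2-fold limit in DMSO, 165 were tested in the drug-treated libraries, and 61 were higher and 2 lower in the mean of the treatments. Under Cisplatin 47 of the 165 were higher and 0 lower, under AU15330 21 were higher and 2 lower, and under the combination 0 were either. The shares of all genes higher were 12.1%, 8.05%, 3.82% and 0.174% in the same order. Of the 180 lower genes, 166 were tested, and 26 were lower and 9 higher in the mean, 30 and 4 under Cisplatin, 10 and 8 under AU15330, and 1 and 1 under the combination. Of all genes, 9.61% were lower and 12.1% higher in the mean, 7.18% and 8.05% under Cisplatin, 2.88% and 3.82% under AU15330 and 0.227% and 0.174% under the combination, and under AU15330 members were called in both directions.

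The low oxygen difference of the DMSO libraries was present under Cisplatin, and there it differed from AU15330 by the test of the difference between treatments. Under Cisplatin 28 of 50 low oxygen genes were higher and 1 lower, with a median of 0.50, where 8.05% and 7.18% of all genes were, and 21 to 36 were higher when each replicate was left out. Under AU15330 2 were higher and 3 lower, where 3.82% and 2.88% of all genes were. There were 4 and 6 without replicate 1, where 743 and 670 of all genes were. Under the combination 0 were called, where 0.174% and 0.227% of all genes were, with 5 and 6 at an unadjusted p under 0.05. DESeq2 called 0 and 2, and 3 and 2 were called without replicate 1, where 225 and 288 of all genes were. Gapdh had 932, 1059 and 1045 CPM in replicates 1, 2 and 3 and 564, 625 and 533 CPM in replicates 4, 5 and 6 under Cisplatin. The 2 sides did not overlap, and the log2 difference was 0.82 (SE 0.07, adjusted p = 4.17e-06). Under AU15330 Gapdh had 1418, 1384 and 1380.4 CPM against 1415, 1407 and 1446 CPM, a difference of -0.03 (SE 0.07, adjusted p = 0.862). The difference between these treatments was -0.85 (SE 0.10, adjusted p = 0.000148). Bsg had 990.0, 1727 and 1565 CPM against 583, 670.3 and 545 CPM under Cisplatin (1.25, SE 0.14, adjusted p = 3.65e-05), and its difference between AU15330 and Cisplatin was -1.10 (SE 0.20, adjusted p = 0.00359).

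Across the list, 19 of 50 low oxygen genes were called lower in AU15330 minus Cisplatin and 0 higher, where 1.44% and 1.90% of all genes were called negative and positive. In Cisplatin minus the combination 15 were higher and 0 lower, where 0.332% and 0.212% of all genes were called. Vegfa, which overlapped in DMSO, had 308, 462 and 431 CPM against 189, 266 and 222 CPM under Cisplatin (0.83, SE 0.13, adjusted p = 0.000878). Id2, outside the list, had 35.3, 52.3 and 47.3 CPM against 22, 23.1 and 19.4 CPM (1.06, SE 0.18, adjusted p = 0.00183). Lox was higher under AU15330 (1.25, SE 0.27, adjusted p = 0.00827) and under Cisplatin (0.98, SE 0.22, adjusted p = 0.0096), and under the combination it was 0.75 (SE 0.24, adjusted p = 0.199). Both calls of Lox were lost without replicate 2, 4, 5 or 6. NRF2 genes had 14 of 22 higher and 0 lower under Cisplatin, where 8.05% and 7.18% of all genes were, and 8 of 22 were lower in AU15330 minus Cisplatin, with Nqo1 at -0.68 (SE 0.13, adjusted p = 0.0073). Without replicate 6 there were 3 higher under Cisplatin, where 78 of all genes were. There were 4 without replicate 4, where 203 of all genes were, and 6 without replicate 2 or 5, where 183 and 245 were.

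**Figure D4:**
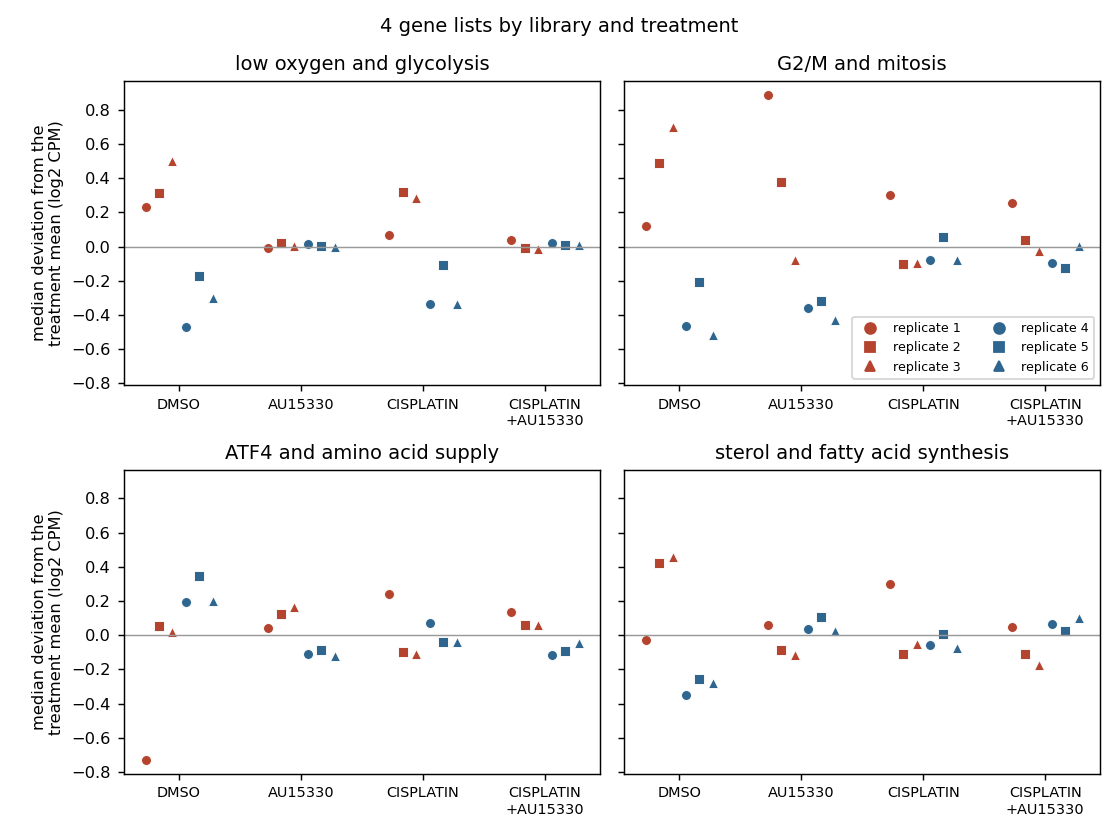
For 4 gene lists, the median deviation of log2 CPM from the mean of the treatment, in each of the 24 libraries (red, replicates 1 to 3; blue, replicates 4 to 6). Low oxygen genes separate the colors in DMSO and Cisplatin (0.07 to 0.32 against -0.34 to -0.11), and G2/M genes in DMSO and AU15330 (-0.08 to 0.89 against -0.43 to -0.32).

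The mitotic difference was present under AU15330. There 35 of 40 G2/M genes were higher and 0 lower, with a median of 0.83, against 0 called under Cisplatin and 0 under the combination. Of all genes, 3.82% were higher under AU15330, 8.05% under Cisplatin and 0.174% under the combination. At an unadjusted p under 0.05, 0 G2/M genes were called under Cisplatin and 1 under the combination, and DESeq2 called 0 in each. The list's median stood at 0.89, 0.38 and -0.08 in AU15330 replicates 1, 2 and 3 and at -0.36, -0.32 and -0.43 in replicates 4, 5 and 6. Replicate 1 was the highest and replicate 3 was nearest to the other side. Without replicate 4, 5 or 6 there were 15, 17 or 13 genes higher, where 138, 167 and 150 of all genes were. There were 34, 25 or 38 without replicate 1, 2 or 3, where 743, 244 and 669 of all genes were. Under Cisplatin 5 were higher without replicate 3 and 2 lower without replicate 1, where 1975 and 1466 of all genes were.

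Ccnb2 had 65.3, 43.9 and 27.4 CPM in replicates 1, 2 and 3 and 21.1, 21.7 and 20.05 CPM in replicates 4, 5 and 6 under AU15330 (1.12, SE 0.21, adjusted p = 0.00304). Mki67 had 169, 125 and 90.7 CPM against 76.6, 74 and 66.9 CPM (0.82, SE 0.16, adjusted p = 0.00473), and in AU15330 minus Cisplatin it was 1.02 (SE 0.23, adjusted p = 0.0166). In that comparison 10 of the 40 genes were higher and 0 lower, where 1.90% and 1.44% of all genes were. The AU15330 call of Mki67 was lost without replicate 6. In AU15330 minus the combination 0 were called, with 31 higher at an unadjusted p under 0.05, and the comparison called 0.0378% of all genes positive and 0.0227% negative.

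The ATF4 genes did not repeat their DMSO direction. In the mean of the drug treatments 22 of 48 were higher and 2 lower, and under AU15330 13 were higher and 1 lower, where 12.1% and 9.61%, and 3.82% and 2.88%, of all genes were. Without replicate 4, 5 or 6 there were 9, 10 or 9 higher in the mean, where 488, 561 and 480 of all genes were. With the replicate number as a random block there were 9 higher and 1 lower in the mean, where 643 and 651 of all genes were. Under AU15330 there were 5 higher without replicate 4, 5 or 6, where 138, 167 and 150 of all genes were. There were 6 without replicate 2, 10 without replicate 3 and 22 without replicate 1, where 244, 669 and 743 of all genes were. Slc7a11 had 20.01, 24.8 and 26 CPM against 11.2, 13.4 and 14.5 CPM in the combination (0.86, SE 0.15, adjusted p = 0.0232), with replicates 1, 2 and 3 the higher, and in the mean of the treatments it was 0.56 (SE 0.10, adjusted p = 0.000825). The call in the combination was lost without replicate 3, 4, 5 or 6. Slc7a3, an arginine transporter, kept the DMSO direction at -1.10 (SE 0.14, adjusted p = 7.26e-05). Nupr1 was -0.20 in the mean of the treatments (SE 0.16, adjusted p = 0.382). Under Cisplatin, ATF4 genes gave 2 higher and 3 lower, where 8.05% and 7.18% of all genes were. They gave 4 and 13 without replicate 1, where 1350 and 1466 of all genes were called. They gave 10 and 1 without replicate 3, where 1975 and 1857 were. The direction with more ATF4 calls there depended on the replicate left out. Of the endoplasmic reticulum genes, 2 were higher and 1 lower in the mean of the treatments, below the 12.1% and 9.61% of all genes. There were 6 and 3 without replicate 3, where 2573 and 2068 of all genes were. There were 0 and 1 without replicate 5, where 561 and 612 of all genes were, and 0 and 1 with the random block.

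Sterol genes, higher in the DMSO libraries of replicates 1, 2 and 3, had 1 gene higher and 8 lower of 32 in the mean of the drug treatments, where 12.1% and 9.61% of all genes were. Without replicate 1 there were 1 higher and 15 lower, where 1124 and 1305 of all genes were. There were 5 higher and 6 lower without replicate 3, where 2573 and 2068 of all genes were. By treatment there were 0 higher and 7 lower under AU15330 and 3 higher and 1 lower under Cisplatin (median 0.11). Under the combination there were 0 higher and 2 lower. All genes gave 3.82% and 2.88%, 8.05% and 7.18%, and 0.174% and 0.227% in the same order. In AU15330 minus Cisplatin 3 sterol genes were called lower, where 1.44% of all genes were. With each replicate left out, 2 to 11 sterol genes were lower under AU15330 (most without replicate 1), 0 to 7 higher under Cisplatin (most without replicate 3) and 0 to 8 lower under the combination (most without replicate 1). All genes gave 139 to 670, 78 to 1975 and 2 to 288 there, in the same order. In the mean, Scd1, a fatty acid desaturase, was -0.35 (SE 0.06, adjusted p = 0.000663) against 0.71 in DMSO. Mmp13, lower in DMSO, was higher under Cisplatin at 31.3, 33.6 and 35.1 CPM against 21.9, 26.7 and 21.2 CPM (0.52, SE 0.13, adjusted p = 0.0163), a call lost without replicate 2, 4 or 6. Interferon genes had 14 of 28 lower and 0 higher under Cisplatin, where 7.18% and 8.05% of all genes were. When each replicate was left out, 5 to 21 were lower. The fewest came without replicate 6 and the most without replicate 1, where 100 and 1466 of all genes were lower. In AU15330 minus Cisplatin 10 interferon genes were higher and 1 lower, where 1.90% and 1.44% of all genes were. G1/S genes had 11 of 45 higher and matrix genes 9 of 23 higher in the mean, where 12.1% of all genes were, with 0 lower in either. Without each replicate in turn these were 2 to 33 (lowest without replicates 4 and 6, highest without replicate 3) and 4 to 9 (lowest without replicates 2, 4, 5 and 6). All genes gave 480 to 2573 higher there. With the replicate number as a random block, G1/S and matrix genes gave 5 and 4 higher, where 643 of all genes were.

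Npr1 and Pkhd1l1 were among the genes lower in replicates 1, 2 and 3 in every drug treatment. Npr1, a natriuretic peptide receptor, had 334, 314 and 371 CPM in replicates 1, 2 and 3 and 856, 879 and 852 CPM in replicates 4, 5 and 6 under AU15330. Under Cisplatin it had 678, 722 and 686 CPM against 1126, 984 and 1114 CPM, and under the combination 514, 500.5 and 513 CPM against 764, 783 and 783 CPM. In none of the 3 treatments did the sides overlap, and in DMSO they did not either, at 582, 406 and 414 CPM against 727, 594 and 732 CPM (-0.56). Its log2 difference was -1.35 (SE 0.07, adjusted p = 4.03e-10) under AU15330, -0.63 (SE 0.07, adjusted p = 1.93e-05) under Cisplatin and -0.61 (SE 0.07, adjusted p = 0.000193) under the combination, and AU15330 minus Cisplatin was -0.72 (SE 0.09, adjusted p = 0.000408). CPM of DMSO and of drug-treated libraries come from separate scalings and are not compared.

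Pkhd1l1, a large membrane protein related to fibrocystin, was also lower under AU15330, Cisplatin and the combination (-1.05, -0.84 and -0.92) and in DMSO (-1.23), and its mean over the drug treatments was -0.94 (SE 0.09, adjusted p = 5.63e-06). Its call in the combination was lost when any replicate other than replicate 1 was left out. The next genes were called in that mean but not in every treatment. Cgn was -0.54 (SE 0.07, adjusted p = 7.26e-05) and was not called under the combination. Flrt1, an adhesion protein, Tle2, a corepressor, and Ptprv, a receptor phosphatase, were -0.99, -0.85 and -0.80, where Flrt1 and Tle2 were not called under Cisplatin and Ptprv was not called under the combination. Flrt1 also overlapped in DMSO. Lgals3 (galectin-3), Fxyd5, a regulator of the sodium pump, and the YAP target Ankrd1 were 0.76, 0.78 and 0.75. Under the combination none of the 3 was called, under AU15330 Fxyd5 was not, and under Cisplatin Ankrd1 was not. Lmcd1 was 0.91 (SE 0.19, adjusted p = 0.00296), but with the libraries of a replicate number summed it was -0.013, and under Cisplatin, where its level was highest, it was 0.11 (SE 0.19, adjusted p = 0.726).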

How the data were processed

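Libraries of 24 samples (4 treatments, 6 replicates) were compared by replicate number. The deposited table held whole-number counts per gene that the authors did not normalize, 25229 genes in 48 columns, 2 lanes per library, which were summed; all columns were used (0 left out). The submitters' processing notes name STAR 2.7.1a, mm10 and DESeq2 1.36.0. The counting tool, annotation and use of strand are not given in the sources used here, so reads of a gene and an antisense or overlapping partner cannot be told apart.

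Genes were kept with filterByExpr and scaled by TMM in edgeR 4.0.16 (R 4.3.3), separately for the 6 DMSO libraries (12067 genes) and the 18 drug-treated libraries (13238). The log2 CPM used a prior count of 2. DMSO differences are differences of mean log2 CPM, with no test, and a gene without overlap has all 3 libraries of a side above all 3 of the other. Drug-treated libraries were fitted by edgeR's quasi-likelihood test with Benjamini-Hochberg adjustment (threshold 0.05), with a mean for each treatment and set of replicate numbers (12 residual degrees of freedom). Standard errors were computed from the F statistic. The scripts were tested on simulated data.

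The sides, the members and the gene lists were chosen with earlier results of these data known. Genes named were the 4 largest DMSO differences of each list, the 10 largest in each direction without overlap and with at least 20 CPM, the 5 largest in each direction in the drug-treated libraries, and 10 fixed names. Other list members that are named were chosen after their values were seen. Of 464 list entries 450 were in the table. Muc16 and the 13 mitochondrially encoded mRNAs were not analysed here. Alternatives used DESeq2 1.42.0, limma 3.58.1, other scalings, filters and prior counts, and each replicate left out. Same-numbered drug-treated libraries had correlations of their deviations from the treatment mean of 0.33 to 0.45 for replicate 1 and -0.12 to 0.19 for the others. These deviations still hold the difference between the sides. With the sides fitted, the estimated correlation of same-numbered libraries was 0.23. The main test did not take the numbers to pair samples, so its p-values in the mean of the treatments may be too small. Depth was 17592588 to 25260009 counts per library.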

Additional observations from a re-analysis of the deposited data

Results flagged for a closer look

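One DMSO library lay apart from the other 5 in 4 of 108 genes and lists checked, its gap to the nearest of them being a large share of the whole range, and each time it was replicate 1. The share was 0.69 for the ATF4 list and 0.70 for the endoplasmic reticulum stress list, where replicate 1 was lowest, and 0.69 for Myl9 and 0.64 for Alb, where it was highest, both genes read at a few CPM or less. Chance flags about 1 in 20 groups.

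The difference between replicate numbers itself differed between treatments for 24 of 270 tests of named genes (edgeR's quasi-likelihood test, adjusted p under 0.05). In AU15330 minus Cisplatin the log2 difference was -0.86 for Aldoc, -1.10 for Bsg, -0.85 for Gapdh, -1.10 for Gbe1, -0.81 for Gpi1, -0.62 for Pgk1 and -0.91 for Vegfa, all genes of low oxygen or glycolysis or, for Bsg, of lactate transport. It was -0.72 for Npr1, -0.68 for Nqo1, -0.89 for Ptprv and -1.07 for Tnnt2. It was positive for Mki67 (1.02) and for the interferon genes Ifit1 (1.27) and Usp18 (0.83). In Cisplatin minus the combination it was 1.20 for Aldoc, 1.21 for Bsg, 0.83 for Gapdh, 1.02 for Gbe1, 0.89 for Gpi1, 0.95 for Pgk1, 0.90 for Vegfa, 0.96 for Nqo1 and -1.08 for Rsad2. In AU15330 minus the combination it was -0.74 for Npr1.

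In 22 of 240 cases a gene or list without overlap in DMSO had no overlap in the opposite direction under a drug, and this difference between DMSO and the drug was not tested. Among genes lower in DMSO replicates 1, 2 and 3, the difference was 0.53 for Atf3, 1.70 for Car6 and 0.52 for Mmp13 under Cisplatin. It was 1.83 for Cth, 0.91 for Ifit1, 0.28 for Rsad2, 0.30 for Herpud1, 0.089 for Creld2 and 0.19 for Reep6 under AU15330. It was 1.29 for Cdsn, 0.83 for Mmp13, 0.66 for Rsad2, 0.34 for Slc16a10 and 0.25 for Sqstm1 under the combination. Among genes higher in DMSO it was -0.28 for Egln3, -0.37 for Ier3 and -0.17 for Lss under AU15330, and -0.29 for Aldoc and -0.33 for Lss under the combination. For lists the measure was the difference between the sides in the mean of each library's median deviation, which is not the median log2 difference over genes given elsewhere. It was 0.22 and 0.17 for ATF4 genes under AU15330 and the combination, and -0.061 for NRF2 genes under AU15330. Cth, Ifit1 and Rsad2 were at or below 10 CPM in DMSO. Some of the drug-treated values are close to the floor of 3 counts and are uncertain in size. Cth under AU15330 had 0.181 to 0.512 CPM against 0.0497 to 0.107 CPM, the latter below the floor, and Car6 under Cisplatin had 0.663 to 1.52 CPM against 0.251 to 0.380 CPM. Under the combination Cdsn had 0.792 to 1.76 CPM against 0.363 to 0.699 CPM and Mmp13 had 0.703 to 1.14 CPM against 0.408 to 0.559 CPM.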

How the results depend on the processing

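The DMSO counts of genes past the 2-fold limit without overlap (176 higher, 180 lower) were 271 lower with no filter on low counts, 1412 and 1310 with no overlap alone and 503 and 433 with a log2 limit of 0.58. Leaving out each replicate gave 153 to 274 higher and 184 to 341 lower, both highest without replicate 1. In the mean of the drug treatments (1604 and 1272), a log2 limit of 0.58 left 87 and 86, the replicate block (limma with a random block, correlation 0.23) 643 and 651, and libraries summed by replicate number 136 and 284. Leaving out each replicate gave 480 to 2573 and 464 to 2068 there, 138 to 743 and 139 to 670 under AU15330, 78 to 1975 and 100 to 1857 under Cisplatin, and 0 to 225 and 2 to 288 under the combination. The lowest counts came without replicate 4 or 6 and the highest without replicate 1 or 3, and the cause was not tested. DESeq2 called 1455 lower under Cisplatin and 121 and 112 under the combination, where no filter gave 43 and 48. Without replicate 1 the DMSO medians of ATF4 and endoplasmic reticulum stress genes were -0.17 and -0.12 and that of other cell types (3 genes) turned from 0.42 to -0.29. Without replicate 1 the drug-treated medians were -0.011 for endoplasmic reticulum stress (from 0.03), -0.028 for immediate early genes (from 0.10), -0.042 for G1 control genes, -0.12 for interferon genes, 0.023 for matrix genes and -0.044 for mesothelial markers. Summing by replicate number turned Ifit1 to -0.28, Lmcd1 to -0.013 and Upk3b to -0.37. Of 4602 values of named genes under alternatives, 4220 kept their direction and side of the threshold, 262 lost and 116 gained the call, and Mt2 moved. Under the block the list counts in that mean were 9 higher in place of 22 for ATF4 genes, 20 in place of 34 for G2/M, 5 in place of 11 for G1/S, 4 in place of 9 for matrix, 5 in place of 9 for NRF2 and 0 in place of 2 for endoplasmic reticulum stress genes, and 16 calls of named genes were lost there, while the counts of all genes in each single treatment moved by less than 1.5 times. DESeq2 size factors and total counts moved the DMSO median of all genes to -0.01 and -0.08. Low genes such as Slc7a3, Cth and the interferon genes are limited by depth.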
